A study of Homo sapiens with 8 samples.

Results

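Glycolysis and the hypoxia response were followed through 36 named genes in Raji cells, a human Burkitt lymphoma B cell line, with and without deletion of a super-enhancer. The genes were taken by name: every RNA-seq row with one of these symbols, and every ATAC-seq peak whose deposited nearest-gene name was one of them. Of the 36 names, 33 had a row among 25377 genes, and 105 of 70312 peaks carried one of the names. SLC16A3, EGLN3 and NDRG1 have no RNA row and their RNA was not analysed here. ENO2, BNIP3 and ADM were too low for the authors' deposited table to give an adjusted p, so 30 genes were tested.

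The RGS-SE knockout cells are labelled as carrying a CRISPR/Cas9 deletion of the super-enhancer that lies between RGS1 and RGS13 on chromosome 1 (positions 192515157 to 192741754, hg38). They were electroporated with Cas9 and guide plasmids, selected with puromycin and grown from single clones, and the labels do not give how many clones were used. The wild-type cells carry no deletion, and no electroporated or cloned control without the deletion is named in the labels. Both genotypes were grown in the same medium with serum at 5% CO2, no hypoxia treatment is named, and RNA-seq and ATAC-seq were each made from 2 libraries per genotype, 8 in all.

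Glycolysis splits glucose into pyruvate in the cytosol, and lactate dehydrogenase turns pyruvate into lactate when it is not burned in mitochondria. Oxygen acts on this pathway through HIF-1: prolyl hydroxylases mark its alpha subunit for destruction when oxygen is present, and under hypoxia the subunit accumulates and binds short sites around the sequence ACGTG in the promoters of glucose transporters, glycolytic enzymes and genes for mitochondrial clearance. Burkitt lymphoma cells, driven by MYC, are known for high glycolysis also with oxygen present.

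The deposited tables hold DESeq2 results per gene and per peak and no column per library. RNA read counts of each library were recovered for 32 of the 33 genes with a row, because a gene's mean normalised count together with its fold change and standard error fit only 1 set of whole read counts; GAPDH was the exception. The recovered libraries cannot be tied to replicate numbers and are called the deeper and the shallower library of their genotype. The size factors were 1.07 and 1.03 in the knockout libraries and 1.30 and 0.717 in the wild-type libraries, so the wild-type libraries differed in depth by 1.82-fold. The deposited fold changes do not name their numerator; they are read as knockout over wild type because the peak at positions 192609102 to 192609836, inside the targeted interval, had a fitted mean of 0.186 in knockout against 622 in wild type, a log2 fold change of -11.71 in the authors' deposited table. The other peaks of the targeted interval, 18 with this one, had log2 fold changes from -0.97 to 1.14. The data therefore show the near loss of 1 peak and not of the whole labelled interval, and the knockout is named here by its label. The cells carried the RNA of B cells: all 7 B cell markers looked up had a mean of at least 100 normalised reads, while none of the T and NK cell or myeloid markers did. Of the epithelial, fibroblast and erythroid markers, 3 of 9 had a row and COL1A1 reached a mean of 203; their summed fitted mean was 282 in knockout against 131 in wild type. In bulk RNA, fewer cells of a type and less RNA per cell cannot be told apart.

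At an adjusted p under 0.05 (DESeq2 Wald test, Benjamini-Hochberg adjustment over all genes, the authors' deposited table), 7 of the 30 tested genes were higher in knockout and 0 were lower. ALDOC and BNIP3L rose more than 2-fold, and LDHA, PDK1, HIF1A, EGLN1 and P4HA1 rose by 1.40-fold (PDK1) to 1.73-fold (P4HA1). Among all 17013 tested genes 9.89% were higher and 9.28% were lower by the same rule. The 30 log2 fold changes had a median of 0.20 and ran from -0.19 to 1.28, with 22 above and 8 below 0, where the median of all tested genes was 0.02. Detection rises with read depth: of the 10675 genes with a mean of at least 100, where the glycolysis and hypoxia genes sit, 1406 were higher and 1396 lower. With p-values adjusted over those 10675 genes alone, SLC2A1, PGK1 and SLC2A3 also passed the Wald test. In a test against a change of at least 1.5-fold, ALDOC and BNIP3L alone of the 30 passed, against 3.94% of all genes.

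**Figure D1:**
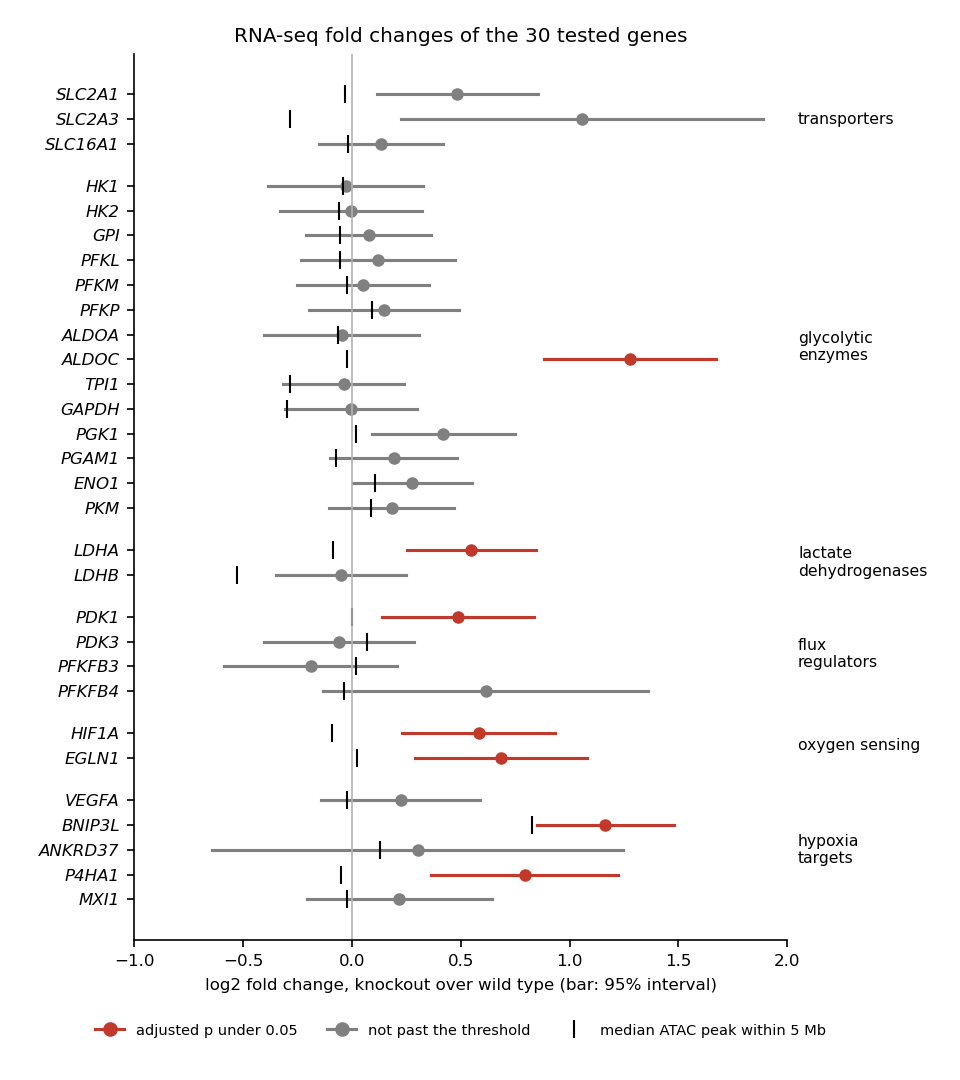
RNA-seq log2 fold change of each of the 30 tested genes, knockout over wild type (horizontal axis), ordered by role; bars are 95% intervals from the deposited standard errors, red marks an adjusted p under 0.05, and the short vertical ticks give the median log2 fold change of ATAC-seq peaks within 5 Mb of the gene. The 7 red genes all lie to the right of 0 and are spread over 5 of the 6 roles, and BNIP3L, unlike the other red genes, has a tick far from 0, at 0.83.

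Of the genes that passed in RNA and have a RefSeq promoter window, the 3 with the largest differences were ALDOC, P4HA1 and EGLN1, and their promoters are printed to show where the letters of the HIF site stand in them. Each is the 250 bases that precede the start of the RefSeq transcript, on the minus strand of GRCh38.p14, read 5′ to 3′; capitals mark every ACGTG or GCGTG on either strand (CACGT and CACGC are the same letters on the other strand). The ALDOC stretch is chr17:28576896-28577145, that of P4HA1 is chr10:73096867-73097116 and that of EGLN1 is chr1:231422288-231422537.
ALDOC: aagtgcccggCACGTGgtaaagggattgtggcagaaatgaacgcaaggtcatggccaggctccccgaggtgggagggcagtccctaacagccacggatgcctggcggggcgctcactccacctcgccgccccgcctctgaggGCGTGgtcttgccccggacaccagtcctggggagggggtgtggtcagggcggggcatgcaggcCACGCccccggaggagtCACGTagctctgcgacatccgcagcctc
P4HA1: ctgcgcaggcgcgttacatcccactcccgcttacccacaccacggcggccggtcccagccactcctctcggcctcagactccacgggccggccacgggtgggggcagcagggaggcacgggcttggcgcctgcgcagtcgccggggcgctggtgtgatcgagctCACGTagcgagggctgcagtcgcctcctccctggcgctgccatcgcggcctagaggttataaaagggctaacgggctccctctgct
EGLN1: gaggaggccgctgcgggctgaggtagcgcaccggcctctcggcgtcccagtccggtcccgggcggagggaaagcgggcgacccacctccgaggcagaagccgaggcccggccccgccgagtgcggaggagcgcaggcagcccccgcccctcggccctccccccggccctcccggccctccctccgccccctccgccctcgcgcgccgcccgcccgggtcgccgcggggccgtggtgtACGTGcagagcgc
The ALDOC promoter held 5 matches, of which the 2 at -240 and -239 bp overlap as the palindrome CACGTG, while P4HA1 held 1 at -86 bp and EGLN1 held 1 at -13 bp. Over windows from 250 bases before to 50 after a start, these letters are common: 48.4% of all 35116 RefSeq promoter windows held at least 1 match, and 40 of the 60 windows of the genes described here, 66.7%, did. CACGTG, also the letters of the E-box that MYC binds, stood in 7.26% of all windows. Windows were present for 31 of the 36 names, BNIP3L not among them, with up to 7 windows for a gene. All 6 of the genes higher in RNA that have a window had a match in at least 1 of their windows, as did 29 of the 31. PDK1 and HIF1A each also had a window without a match. The share of all genes with a match in any window was not computed, so these counts cannot be set against the 48.4% of single windows. A match is a description of these letters and says nothing of binding.

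The entry of glucose was followed through its transporters, none of which passed the test. SLC2A1 encodes GLUT1, the main glucose transporter of most cells, and had 3145 and 3131 normalised reads in the deeper and shallower knockout library, against 1928 and 2563 in the deeper and shallower wild-type library. Both knockout libraries lay above both wild-type libraries, and the authors' deposited table gives a log2 fold change of 0.48 with an SE of 0.19 (DESeq2 adjusted p = 0.0518). Here and below, groups that do not overlap are a description only, since the share of all genes with that order was not computed. SLC2A3 encodes GLUT3, a transporter with high affinity for glucose, and had 219 and 167 normalised reads in knockout against 88.3 and 97.6 in wild type. The groups did not overlap and the fold was 2.08, but with so few reads the interval was wide (log2 fold change 1.06, SE 0.42 and DESeq2 adjusted p = 0.0625, the authors' deposited table). Its processed copy SLC2A3P1 had more reads, 1181 and 1034 in knockout against 1141 and 1403 in wild type, so how reads were divided between the loci could matter for SLC2A3 and was not tested. SLC16A1 encodes MCT1, which carries lactate across the membrane, and had 12510 and 12554 normalised reads in knockout against 11833 and 11024 in wild type (log2 fold change 0.13, SE 0.15 and DESeq2 adjusted p = 0.617, the authors' deposited table). Both glucose transporters passed when set against the median of the ATAC-seq peaks within 5 Mb, with adjusted p = 0.0398 for SLC2A1 and 0.0144 for SLC2A3 from the same Wald test. These medians, -0.03 and -0.28, were taken as known without error, and SLC2A1 moved only from 0.48 to 0.52. Without the deeper wild-type library SLC2A1 was at 0.29.

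Of the 14 tested enzymes that take glucose to pyruvate, ALDOC rose, 0 fell and 13 did not pass, where 9.89% of all tested genes were higher and 9.28% lower. ALDOC encodes aldolase C, the isozyme of the enzyme that splits fructose bisphosphate best known from brain, and had 2005 and 1806 normalised reads in the deeper and shallower knockout library, against 708 and 869 in the deeper and shallower wild-type library. The lower knockout library was more than 2 times the higher wild-type library, and the authors' deposited table gives a log2 fold change of 1.28, or 2.42-fold with an SE of 0.20 (DESeq2 adjusted p = 1.16e-08). The gene lies on chromosome 17 at 28573115 to 28576948 on the minus strand (GRCh38), and ATAC-seq peaks within 5 Mb of it had a median log2 fold change of -0.02. Leaving out any library kept the ALDOC call, with log2 fold changes from 1.13 to 1.43. ALDOA, the aldolase of muscle and most other tissues, had 15496 and 15352 normalised reads in knockout against 13139 and 18729 in wild type, a log2 fold change of -0.05 with an SE of 0.18 (DESeq2 adjusted p = 0.917, the authors' deposited table). The wild-type ALDOA values lay on both sides of the knockout ones. The ALDOC log2 fold change exceeded that of ALDOA by 1.32 (95% interval 0.79 to 1.86). Per kilobase of exon, ALDOC made up 15.9% and 14.7% of the summed reads of ALDOA and ALDOC in the deeper and shallower knockout library, against 7.32% and 6.37% in the wild-type libraries, so ALDOA remained the more abundant aldolase in each.

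Of the enzymes from glucose to pyruvate, the most abundant did not pass. GAPDH, which oxidises glyceraldehyde phosphate, had the highest level of all the genes described here per kilobase of exon, and its fitted mean was 134561 in knockout against 134965 in wild type (log2 fold change -0.00, SE 0.15 and DESeq2 adjusted p = 0.993, the authors' deposited table). TPI1, the triose phosphate isomerase, had 25127 and 26398 normalised reads in knockout against 26307 and 26591 in wild type, a log2 fold change of -0.04 with an SE of 0.14 (DESeq2 adjusted p = 0.912, the authors' deposited table). PKM, the pyruvate kinase that makes pyruvate and ATP, had 72155 and 71952 in knockout against 59045 and 67926 in wild type, a log2 fold change of 0.18 with an SE of 0.15 (DESeq2 adjusted p = 0.453, the authors' deposited table). For GAPDH and TPI1 the groups were close to equal, while for PKM both knockout libraries were above both wild-type libraries by less than the test could call. PGAM1, the phosphoglycerate mutase, had 13481 and 13797 in knockout against 12651 and 11241 in wild type (log2 fold change 0.19, SE 0.15 and DESeq2 adjusted p = 0.436, the authors' deposited table). ENO1, the enolase of most tissues, had 65527 and 66201 in knockout against 53445 and 55200 in wild type, a log2 fold change of 0.28 with an SE of 0.14 (DESeq2 adjusted p = 0.159, the authors' deposited table). ENO1 did not overlap between the groups and its libraries lay close together within each, but it did not pass. PGK1, the phosphoglycerate kinase on the X chromosome, had 10314 and 10184 in knockout against 8615 and 6703 in wild type, a log2 fold change of 0.42 with an SE of 0.17 (DESeq2 adjusted p = 0.0609, the authors' deposited table). PGK1 also lay higher in both knockout libraries; it passed when the deeper wild-type library was left out (log2 fold change 0.61) and not when the shallower one was (0.25).

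The enzymes of the upper pathway did not pass either. HK1 and HK2, the hexokinases that trap glucose, stood at log2 fold changes of -0.03 and -0.00, and GPI, the next enzyme, at 0.08 (the authors' deposited table). The phosphofructokinase genes PFKL, PFKM and PFKP, whose enzyme commits sugar to glycolysis, stood at 0.12, 0.05 and 0.15 on the same scale (the authors' deposited table). In HK1, HK2, PFKL and PFKM the knockout libraries lay between the wild-type ones; HK2, for example, had 4757 and 4635 normalised reads in knockout against 4280 and 5145 in wild type. The typical standard error of the 30 tested genes was 0.18 (median), so differences well below 1.5-fold could not be told from 0. ENO2, the neuronal enolase, was near absent, with 7 and 3 reads in the deeper and shallower knockout library, against 4 and 3 in the wild-type libraries. Processed copies of GAPDH, PGK1, ENO1, PGAM1, TPI1, LDHA, LDHB and PKM exist in the human genome, and reads that could be shared with them make these levels less certain.

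At the end of the pathway LDHA rose and LDHB did not pass. LDHA, the subunit that favours lactate production, had 46879 and 46615 normalised reads in knockout against 34657 and 29251 in wild type. The knockout libraries agreed closely and both were above the wild-type ones, with a log2 fold change of 0.55, or 1.46-fold with an SE of 0.15 (DESeq2 adjusted p = 0.00276, the authors' deposited table). LDHA lies on chromosome 11 at 18394560 to 18408425 on the plus strand. LDHB, the heart-type subunit that favours pyruvate, had 17879 and 18504 normalised reads in knockout against 20442 and 17236 in wild type, and its groups overlapped (log2 fold change -0.05, SE 0.15 and DESeq2 adjusted p = 0.893, the authors' deposited table). The log2 fold change of LDHB was below that of LDHA by a difference of -0.60 (95% interval -1.02 to -0.18). Per kilobase of exon, LDHB made up 43.5% and 44.5% of the summed reads of both subunits in knockout, against 54.4% and 54.3% in wild type. The crossing of these shares rests on the exon lengths: in normalised reads not divided by length, LDHA was above LDHB in all 4 libraries. ATAC-seq peaks within 5 Mb of LDHB, on the short arm of chromosome 12, had a median log2 fold change of -0.53, and its part in the LDHB value was not tested; set against that median, LDHB was at 0.48 (adjusted p = 0.0160).

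**Figure D2:**
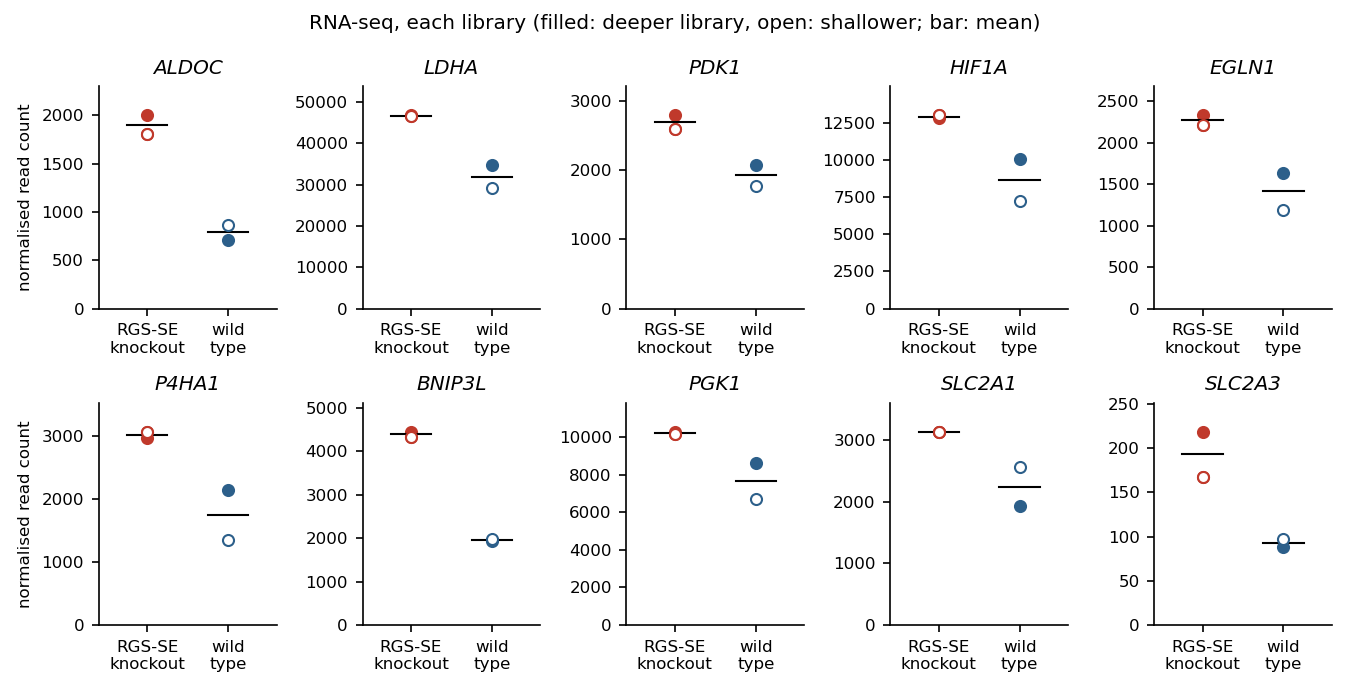
Normalised read counts of 10 genes in each RNA-seq library (vertical axis, from 0), knockout left and wild type right; filled points are the deeper and open points the shallower library of a genotype, and bars are means of the 2 libraries. These genes are the 7 that passed and 3 of those next to the threshold, and both knockout points lie above both wild-type points in each. The share of all genes with that order was not computed, while 9.89% of all tested genes were called higher. Other genes, such as HK1, ALDOA and LDHB, overlapped. For HIF1A, P4HA1, EGLN1, LDHA, PDK1 and PGK1 the open wild-type point is the lowest of the 4.

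Among the genes that set the flux into and out of glycolysis, PDK1 rose. It encodes a kinase that switches off pyruvate dehydrogenase and so keeps pyruvate out of the mitochondrial cycle, and had 2803 and 2599 normalised reads in knockout against 2081 and 1774 in wild type. The groups did not overlap, with a log2 fold change of 0.49, or 1.40-fold with an SE of 0.18 (DESeq2 adjusted p = 0.0364, the authors' deposited table). The gene lies on chromosome 2 at 172555373 to 172608669 on the plus strand. Its call was the least stable of the 7: it was lost without either knockout library, without the shallower wild-type library and with no filter on low means (adjusted p = 0.0543). PDK3, a kinase with the same target, had 2519 and 2573 in knockout against 2886 and 2415 in wild type, where the groups overlapped (log2 fold change -0.06, the authors' deposited table). The PDK3 log2 fold change was below that of PDK1 (difference -0.54, 95% interval -1.03 to -0.05, not adjusted for the number of isozyme pairs compared). The PDK3 share of their reads per kilobase was 43.3% and 45.7% in knockout against 54.1% and 53.6% in wild type. PFKFB3 and PFKFB4 make fructose 2,6-bisphosphate, the activator of phosphofructokinase, and neither passed. PFKFB4 had 260 and 292 in knockout against 130 and 233 in wild type (log2 fold change 0.61, adjusted p = 0.288, DESeq2, the authors' deposited table). PFKFB3 had 2059 and 2025 in knockout against 1937 and 2729 in wild type (log2 fold change -0.19, adjusted p = 0.603, DESeq2, the authors' deposited table). PFKFB4 was higher in both knockout libraries and PFKFB3 overlapped, and the difference between their log2 fold changes, 0.80, had a 95% interval from -0.04 to 1.65.

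Among the 36 genes, both tested genes of oxygen sensing rose, where 9.89% of all tested genes were higher. HIF1A, the oxygen-regulated alpha subunit of HIF-1, had 12824 and 13030 normalised reads in knockout against 10054 and 7209 in wild type. The knockout libraries agreed closely while the wild-type libraries differed, and the log2 fold change was 0.58 with an SE of 0.18 (DESeq2 adjusted p = 0.00943, the authors' deposited table). It lies on chromosome 14 at 61695513 to 61748259 on the plus strand. EGLN1 encodes PHD2, the prolyl hydroxylase that marks the HIF alpha subunit for destruction when oxygen is present and is itself a known HIF target, and had 2336 and 2210 in knockout against 1632 and 1194 in wild type. Its groups did not overlap, with a log2 fold change of 0.68, or 1.61-fold with an SE of 0.20 (DESeq2 adjusted p = 0.00623, the authors' deposited table); the gene lies on chromosome 1 at 231363751 to 231422287 on the minus strand. HIF1A RNA and HIF-1 activity are different quantities, and protein was not measured in these libraries.

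Of the 5 tested hypoxia targets, BNIP3L and P4HA1 rose and 3 did not pass, where 9.89% of all tested genes were higher. BNIP3L encodes NIX, a receptor on mitochondria that directs them to autophagy, and had 4451 and 4334 normalised reads in knockout against 1942 and 1979 in wild type. The libraries of each genotype agreed closely and the groups were far apart, with a log2 fold change of 1.16, or 2.24-fold with an SE of 0.16 (DESeq2 adjusted p = 3.41e-11, the authors' deposited table). BNIP3L lies on chromosome 8 at 26383054 to 26505636 on the plus strand, where ATAC-seq peaks within 5 Mb had a median log2 fold change of 0.83. Set against that median, the RNA of BNIP3L was higher by 0.34 and did not pass (adjusted p = 0.144), and the part of the regional shift in its RNA difference was not tested. P4HA1, the catalytic subunit of the prolyl hydroxylase that acts on collagen, had 2971 and 3072 in knockout against 2137 and 1345 in wild type. The groups did not overlap, with a log2 fold change of 0.79, or 1.73-fold with an SE of 0.22 (DESeq2 adjusted p = 0.00288, the authors' deposited table); it lies on chromosome 10 at 73007217 to 73096974 on the minus strand. VEGFA, the angiogenic factor, ANKRD37, a small ankyrin-repeat gene known as a HIF-1 target, and MXI1, a MYC antagonist, did not pass, with log2 fold changes of 0.22, 0.30 and 0.22 per the authors' deposited table. BNIP3, the close relative of BNIP3L and a classical HIF target, had 0 and 0 reads in the knockout libraries against 4 and 0 in the deeper and shallower wild-type library. ADM, the gene of the peptide adrenomedullin, had 0 and 3 reads in knockout against 3 and 0 in wild type. Both were thus at the edge of detection in both genotypes, and no fold is given.

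The calls of 5 of the 7 genes depended on the shallower wild-type library. Without it, LDHA (log2 fold change 0.43, p = 0.0195), PDK1 (0.38, p = 0.0831), HIF1A (0.36, p = 0.0988), EGLN1 (0.48, p = 0.0525) and P4HA1 (0.50, p = 0.0615) no longer passed in a refit of the same negative binomial model with the lone library assumed to vary like the others, in which a p of at most 0.00957 corresponds to the adjusted threshold. ALDOC (1.43) and BNIP3L (1.18) kept their calls without it, and SLC2A1 passed without it (0.70) but was at 0.29 without the deeper wild-type library. Read depth moved with that library, and its part in these values was not tested.

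Of the genes that rose in RNA, BNIP3L had a promoter peak that rose, LDHA had one that fell, and the others had none that passed. Of 34 peaks within 1000 bp of a start site, 2 were higher in knockout and 4 were lower at an adjusted p under 0.05 (Wald test, the authors' deposited table), where 14.7% of all promoter peaks were higher and 19.0% lower. Their median log2 fold change was -0.08, against -0.05 over all 11816 promoter peaks. The values are fitted group means, since ATAC-seq counts per library were not analysed here. The ALDOC promoter peak had a fitted mean of 709 in knockout against 804 in wild type, a log2 fold change of -0.18 with an SE of 0.09 (DESeq2 adjusted p = 0.120, the authors' deposited table), so the largest RNA rise came with a peak slightly lower and not past the test. LDHA has a peak at its start, 33 bp from it, that fell to 637 in knockout, against 795 in wild type (log2 fold change -0.32, SE 0.10 and DESeq2 adjusted p = 0.00469, the authors' deposited table), while its other promoter peak was at -0.09. Set against the median of peaks within 5 Mb, -0.09, the start peak was at -0.23 and did not pass (Wald test, adjusted p = 0.0594). The promoter peaks of PDK1 (log2 fold change 0.12), HIF1A (0.04) and P4HA1 (-0.12) and the peak over the EGLN1 promoter window (0.04) did not pass in the authors' deposited table.

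BNIP3L was the gene whose RNA and promoter peak both rose: the peak had a fitted mean of 1824 in knockout against 1067 in wild type (log2 fold change 0.77, SE 0.07 and DESeq2 adjusted p = 1.11e-27, the authors' deposited table). That is slightly less than the 0.83 of the peaks around it, from which it differed by -0.055. HK1 had the other higher promoter peak, on chromosome 10 at 69317133 to 69317775, 727 bp upstream of an annotated start, with 240 in knockout against 113 in wild type (log2 fold change 1.08, SE 0.21 and DESeq2 adjusted p = 2.01e-06, the authors' deposited table). HK1 RNA did not pass (-0.03), and a larger HK1 promoter peak 266 bp from a start was at 0.13 and did not pass. The lower promoter peaks, besides that of LDHA, belonged to TPI1 (log2 fold change -0.37, adjusted p = 0.00208, DESeq2), GAPDH (-0.20, adjusted p = 8.22e-04, DESeq2) and PFKFB4 (-0.15, adjusted p = 0.0407, DESeq2) in the authors' deposited table. A peak that lies over the HK2 promoter windows but is annotated at 2085 bp from a start also fell, to a fitted mean of 1024 in knockout, against 1270 in wild type (log2 fold change -0.31, SE 0.08, DESeq2 adjusted p = 3.64e-04, the authors' deposited table). TPI1 and GAPDH share the short arm of chromosome 12, where surrounding peaks had medians of -0.28 and -0.30, and set against these medians the peaks stood at -0.087 and 0.094; their RNA was at -0.04 and -0.00.

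**Figure D3:**
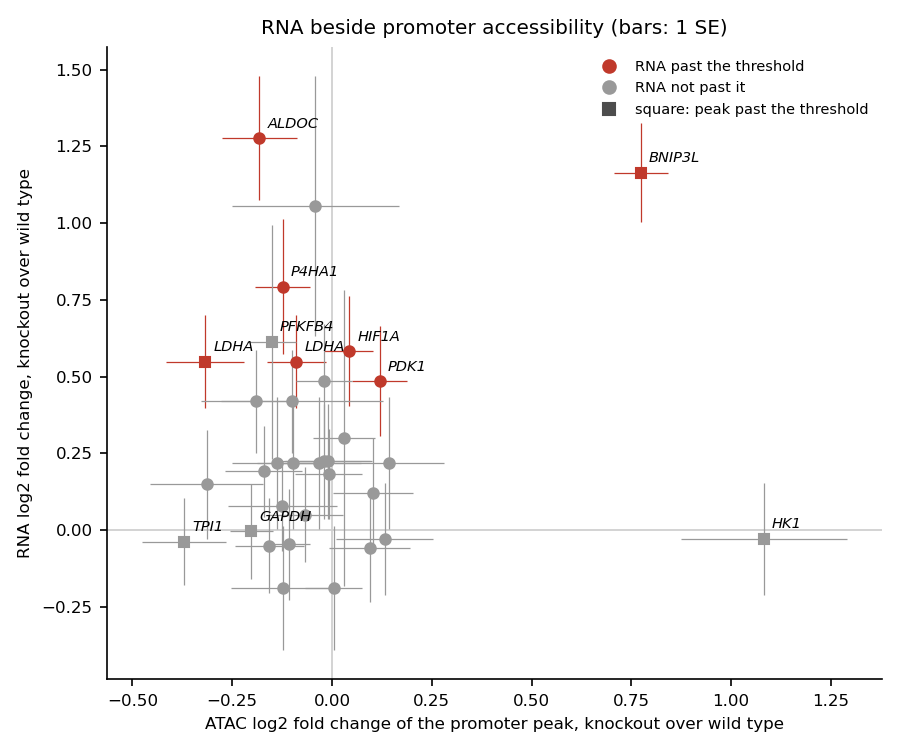
RNA-seq log2 fold change (vertical axis) against the ATAC-seq log2 fold change of each promoter peak (horizontal axis), both knockout over wild type, for the genes with a peak within 1000 bp of a start; bars are 1 SE, red marks RNA past the threshold and squares mark peaks past it. ALDOC, P4HA1 and LDHA sit high and left of 0, BNIP3L sits high at 0.77, and HK1 sits far right at 1.08 with RNA near 0.

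Taken over all 105 peaks, as many were higher in knockout as lower, 16 each, and 73 did not pass, where 20.4% of all peaks were higher and 15.5% lower. The median was -0.02 and the values ran from -1.56 to 2.24, both ends being distal peaks. Among the 71 peaks farther than 1000 bp from a start, 14 were higher and 12 lower. Near the glucose transporters the directions differed. Of 9 peaks annotated to SLC2A1, 3 rose and 1 fell: the peaks 34391 bp and 23337 bp downstream of its start stood at 0.72 and 0.67 and that at 16155 bp at -0.57 (log2 fold changes of the authors' deposited table). Of 6 peaks annotated to SLC2A3, 4 fell and 0 rose, the largest fall being at 34852 bp upstream (chromosome 12, 7970312 to 7971766), with a fitted mean of 85.9 in knockout against 253 in wild type (log2 fold change -1.56, SE 0.21, the authors' deposited table). The SLC2A3 peaks 41330 bp upstream and 2645 bp downstream were at -0.59 and -0.45, in a region with a median of -0.28. Set against that median, the peak at 34852 bp still passed (Wald test, adjusted p = 1.13e-08). Those at 41330, 24679 and 2645 bp did not (Wald test, adjusted p = 0.0879, 0.348 and 0.375). SLC2A3 RNA was at the same time higher in both knockout libraries, without passing.

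Other large distal differences lay at HIF1A, GPI, VEGFA and MXI1. At HIF1A, a peak 31849 bp upstream (chromosome 14, 61663370 to 61663958) fell to a fitted mean of 122 in knockout, against 310 in wild type, a log2 fold change of -1.35 (SE 0.18, the authors' deposited table), and 3 of the gene's 5 peaks fell while its RNA rose. At GPI, a peak 54134 bp upstream (chromosome 19, 34310224 to 34310988) had 437 in knockout against 176 in wild type, a log2 fold change of 1.31 (SE 0.15, the authors' deposited table), while GPI RNA did not pass (0.08). VEGFA had a peak 4486 bp downstream of its start at 0.74 and MXI1 had one 2189 bp downstream at 0.69 in the authors' deposited table, both higher in knockout with RNA that did not pass. The highest value of all, 2.24, belonged to a weak peak 3662 bp upstream of PFKFB3 with 100.4 in knockout against 21.2 in wild type. NDRG1, which has no RNA row here, had 1 peak, lower by a log2 fold change of -1.29 in a region with a median of -1.09. The 5 names ENO2, SLC16A1, SLC16A3, EGLN3 and ADM carried no peak.

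**Figure D4:**
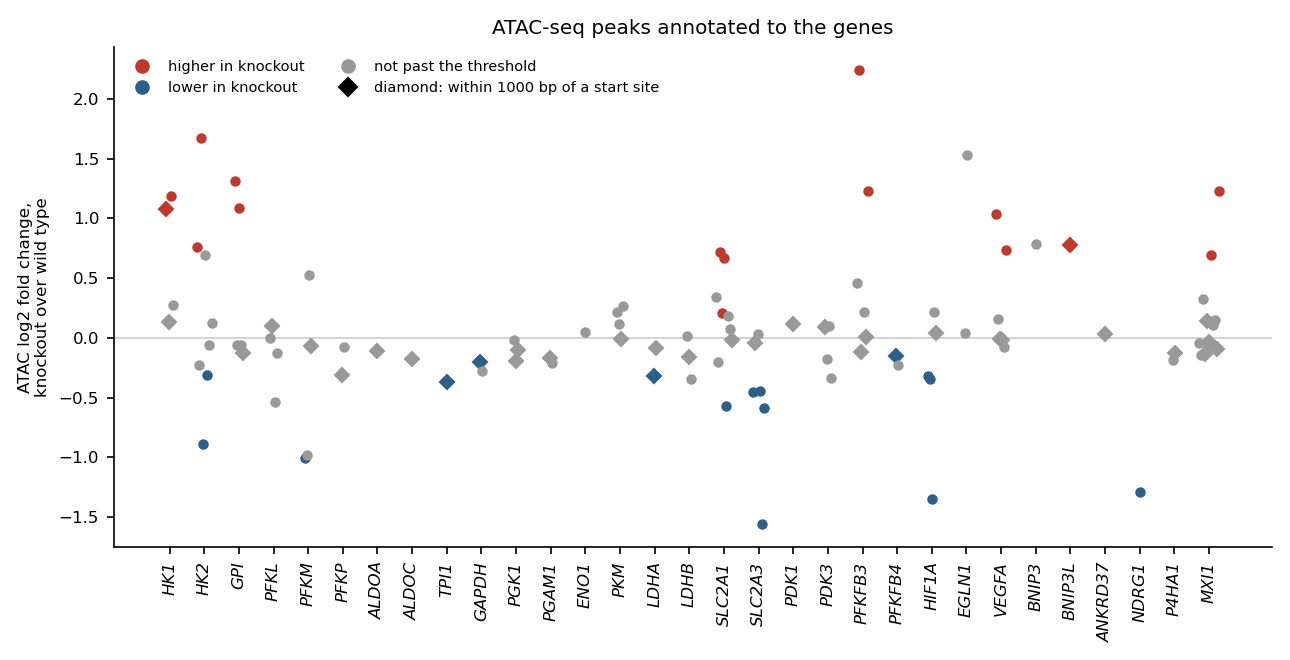
ATAC-seq log2 fold change, knockout over wild type (vertical axis), of each of the 105 peaks by the gene it is annotated to (horizontal axis); diamonds lie within 1000 bp of a start, red and blue mark peaks higher and lower in knockout at an adjusted p under 0.05. Diamonds cluster near 0 except BNIP3L and one of HK1, and the peaks of SLC2A3 and HIF1A that passed are all blue.

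A further 130 genes of the same pathways and of their neighbours were followed as lists; 112 had an RNA row and 92 were tested, of which 13 were higher and 10 lower in knockout (9.89% and 9.28% of all tested genes were), with a median log2 fold change of 0.08. By list, 5 of 34 other hypoxia response genes were higher and 5 lower. P4HA2, the partner isozyme of P4HA1 in collagen hydroxylation, had 555 and 512 normalised reads in knockout against 56.0 and 86.5 in wild type (log2 fold change 2.93, SE 0.34, the authors' deposited table). GBE1, the glycogen branching enzyme, had 4048 and 3954 in knockout against 1206 and 918 in wild type (log2 fold change 1.91, SE 0.19, the authors' deposited table). In both genes the knockout libraries lay above the wild-type ones by more than 3 times, and the peaks within 5 Mb of them had medians of -0.00 and 0.08. MIR210HG, the host transcript of the hypoxia-induced miR-210, also rose, at low level (fitted mean 42.9 in knockout against 4.63 in wild type; log2 fold change 3.21, SE 1.06, the authors' deposited table). CXCR4, a chemokine receptor, and ZNF292, a zinc finger gene known to respond to hypoxia, rose by 0.89 and 1.20 on the log2 scale, per the authors' deposited table, ZNF292 in a region with a median of 0.60. Against these, EFNA3 (log2 fold change -1.92), BCL6 (-0.80), KDM4C (-0.85), JMJD6 (-0.82) and NDUFA4L2 (-0.95) fell in the authors' deposited table, BCL6 with 2855 and 2955 normalised reads in knockout against 5360 and 4740 in wild type. The deeper and shallower wild-type libraries lay far apart for EFNA3 (141 and 329) and NDUFA4L2 (282 and 557). Set against the median of peaks within 5 Mb, NDUFA4L2 and KDM4C did not pass (Wald test, adjusted p = 0.0767 and 0.415), while EFNA3, BCL6 and JMJD6 did. EFNA3 encodes an ephrin ligand, BCL6 a germinal-centre repressor, KDM4C and JMJD6 oxygen-dependent dioxygenases and NDUFA4L2 a HIF-induced mitochondrial protein. KDM4C lies in a region with a median of -1.10.

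At the gate to mitochondria, 2 of 13 genes rose and 1 fell. Over all tested genes 9.89% were higher and 9.28% lower, and 26.2% of those with a mean of at least 100 passed in either direction. The counts of the lists that follow stand beside the same shares. MPC1, a subunit of the mitochondrial pyruvate carrier, had 1921 and 2017 normalised reads in knockout against 641 and 656 in wild type (3.04-fold, SE 0.19 on the log2 scale, DESeq2 adjusted p = 4.80e-15, the authors' deposited table). Its groups were far apart, in a region with a median ATAC-seq log2 fold change of 0.62. PDHX, a component of the pyruvate dehydrogenase complex, rose by a log2 fold change of 0.58, and PDPR, the regulatory subunit of its phosphatase, had -0.95 in a region at -0.63, both in the authors' deposited table. In the pentose phosphate pathway 2 of 8 genes rose and 1 fell: RPE (0.81) and RPIA (-0.77), the epimerase and the isomerase of ribulose phosphate, and H6PD (0.51), a glucose 6-phosphate dehydrogenase of the endoplasmic reticulum (log2 fold changes of the authors' deposited table). H6PD, P4HTM, NDUFA4L2, EGLN2, HIF1AN and VHL were named after their values were seen, to complete these groups. Of 16 genes of the HIF machinery 3 rose, CREBBP (0.66), ELOB (0.75) and COMMD1 (0.95), and P4HTM fell (-0.69) in the authors' deposited table, while the hydroxylases EGLN2 (-0.39) and HIF1AN (0.17) and the ubiquitin ligase subunit VHL (0.05) did not pass; CREBBP and ELOB lie on chromosome 16 where the regional medians were 1.02 and 1.03. Of 18 other glycolysis and sugar entry genes PMM2 rose (1.11, in a region at 0.98) and SLC2A5, the fructose transporter, fell (-0.50) in the authors' deposited table. TXNIP, the inhibitor of glucose uptake that glucose itself induces, had 697 and 696 normalised reads in knockout against 1062 and 1073 in wild type (log2 fold change -0.62, SE 0.21 and DESeq2 adjusted p = 0.0206, the authors' deposited table), and the other tested MondoA genes did not pass.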

How the data were processed

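RNA-seq and ATAC-seq libraries of RGS-SE knockout and wild-type Raji cells were compared, 2 per genotype and assay. Per the submitters' processing notes, the genome was GRCh38 (hg38) and the tools included STAR and featureCounts, Bowtie2 and HOMER, DESeq2, and for trimming Trimmomatic, cutadapt and Trim Galore. For tool versions and the peak caller, nothing was given in the sources used here. The extract protocol names poly(A) selection and a stranded kit; whether counting used strand is not given. Each deposited table holds, per gene or peak, a mean normalised count (a signal scaled by the authors' size factors), a log2 fold change with its standard error, a Wald score and a p-value with its adjusted value. The distance of each peak to the nearest start site is the authors' deposited annotation. Log2 fold changes, p-values and calls are the authors' own, from DESeq2 fitted to all features. edgeR had been planned, but the files hold no count per library.

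Fitted group means were computed from the deposited mean and fold change. Read counts per RNA library were recovered as the whole numbers that give the deposited mean, fold change and standard error. Of 9234 genes with a mean under 6, every one had exactly 1 solution, and the method was tested on simulated data. The summed mean was 3.28e+07 reads per RNA library and 1.99e+07 per ATAC library, and the ratio of fold change to standard error matched the deposited score. Gene positions and exon lengths came from GENCODE 44 (GRCh38) for all 25377 gene IDs; promoter windows came from RefSeq (GRCh38.p14). Python 3.11.15, numpy 2.4.6, pandas 2.3.3, scipy 1.17.1 and matplotlib 3.10.9 were used.

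The series calls the replicates biological, but the number of clones is not given, so p-values measure only the spread between these libraries. Isozymes were compared by the difference of their log2 fold changes, with standard errors taken as independent and no adjustment for the number of pairs. Alternatives were a test against a 1.5-fold change, statistics divided by their spread over all features, centring on the median feature or on ATAC-seq peaks within 5 Mb, other filters and thresholds, other peak rules and leaving out each RNA library. All 36 genes are named; those past the threshold and the 10 highest per kilobase have full values, as do promoter peaks past it and the 10 largest distal ones with at least the median mean. For the other pathway genes, up to 20 with the smallest adjusted p were named. The 36 genes and the lists were chosen with earlier results of these data known.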

Additional observations from a re-analysis of the deposited data

How the results depend on the processing

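No paired analysis was possible because the deposited columns carry no replicate numbers. TMM scaling and the replicate block were therefore not run, nor was leaving out ATAC-seq libraries, whose values per library were not analysed here. Of the 7 genes higher in RNA, 2 passed in a test against a 1.5-fold change and 2 with the statistics divided by their spread over all genes (1.70), while leaving out 1 library gave 3 to 8 higher and 0 lower. Without the shallower wild-type library 3 passed. Of the 13 other pathway genes higher and 10 lower, 4 and 0 passed against a 1.5-fold change and 4 and 1 with divided statistics. At a threshold of 0.01, 5 were lower. After centring on ATAC-seq peaks within 5 Mb, 6 genes of these lists were lower, including ZNF395, which is not among the 10. Its log2 fold change went from 0.09 to -0.73 (Wald test, adjusted p = 0.00262). TXNIP, P4HTM, NDUFA4L2, KDM4C and PDPR no longer passed as lower after this centring. Of the 16 higher and 16 lower peaks, 3 and 2 passed against a 1.5-fold change and 2 and 0 with divided statistics (spread 2.46). With a mean of at least 100, 8 were higher. After local centring 8 peaks were lower, including the PFKP promoter peak, which is not among the 16. Of the 2 higher and 4 lower promoter peaks, 0 and 0 passed against a 1.5-fold change and 1 and 0 with divided statistics. Within 500 bp of a start, 1 was higher. After local centring the 4 lower peaks, of LDHA, TPI1, GAPDH and PFKFB4, no longer passed. The 1 promoter peak lower after local centring was that of PFKP, which is not among the 4 (Wald test, adjusted p = 0.0178). Among genes and peaks that passed before or after it, local centring also turned the sign of LDHB RNA (0.48). The promoter peaks of BNIP3L (-0.055), GAPDH (0.094) and LDHB (0.37) turned too, as did the RNA of CREBBP (-0.36), ELOB (-0.28), KDM4C (0.26) and ZNF395 (-0.73). The RNA of GAPDH (0.30), TPI1 (0.25), HK1 (0.01), HK2 (0.06) and ALDOA (0.02) also turned sign, without passing. The cause was not tested. Elsewhere the genes and peaks that passed kept their sign; among genes not past the test, HK1, HK2, PFKL, PFKM, ALDOA, LDHB, PDK3 and PFKFB3 changed sign when a library was left out, and HK2 and GAPDH when centred on the median gene. With 2 libraries per group and a typical standard error of 0.18, small differences could not be detected at this depth.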
